A study of Homo sapiens with 12 samples.

Results

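The genes described here are the molecular chaperones of the cytosol and of the endoplasmic reticulum (ER), with 3 mitochondrial chaperones beside them. They were taken by gene symbol and by no rule on measured values, though with earlier results of these data known. They make up 44 of the 20030 rows of the expression table. Of these, 29 were cytosolic (heat shock proteins of the HSP70, HSP90 and small HSP families, their co-chaperones, the 8 subunits of the CCT chaperonin and the transcription factor HSF1), 12 belonged to the ER and 3 to the mitochondrion. All 44 were in the table, and all 44 passed the filter on low values in each comparison.

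Chaperones bind proteins that are not yet folded, or that have lost their fold, and keep them from aggregating. In the cytosol HSP70 proteins take up such clients with the help of J-domain co-chaperones, nucleotide exchange factors recycle HSP70, HSP90 finishes a subset of clients that includes many kinases, and the ring-shaped CCT chaperonin folds actin and tubulin. HSF1 raises the cytosolic set when unfolded proteins build up there. In the ER, BiP (HSPA5) and GRP94 (HSP90B1) do the work of HSP70 and HSP90, calnexin and calreticulin hold glycoproteins, disulfide isomerases form and rearrange disulfide bonds, and this set is raised by the unfolded protein response, a separate pathway.

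The data are transcript levels of MOLM-13 and THP-1, both established human acute myeloid leukemia lines with a rearranged MLL gene. MOLM-13 carries the FLT3/ITD mutation and THP-1 carries wild-type FLT3. Each line was incubated with Jiyuan oridonin A (JOA), an ent-kaurene diterpenoid, or with DMSO as control, with 3 libraries in each of the 4 groups. The time is 48 h by the sample labels, although the study's text is not uniform on it. JOA was given at 0.5 µM to MOLM-13 and at 2 µM to THP-1, so line and dose cannot be told apart in any comparison of the responses, and each line is 1 culture model of its disease. The questions were whether JOA changed the chaperone transcripts in either line, whether the lines differed before treatment, and whether the cytosolic and ER sets behaved alike.

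Levels are given in FPKM, a unit of sequenced fragments scaled by transcript length and by the size of the library. The 12 libraries summed to 291127 to 325023 FPKM, and replicates of a group correlated at 0.9889 to 0.9954 on the log2 scale over genes with a mean of at least 1 FPKM. The lineage was checked by SPI1, a transcription factor of myeloid cells, at 38.3 to 63.3 FPKM, while HBB of red cells and PPBP of platelets were listed at 0 in all 12 libraries. Nothing in the sample records says that the replicates came from separate cultures, so p-values measure only the spread between these libraries. In bulk RNA, fewer cells that express a gene and less RNA of it per cell cannot be told apart.

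The chaperones were among the abundant transcripts of both lines. Together the 44 genes held 1.99% ± 0.265 (SD, n = 3) of all FPKM in MOLM-13 control libraries and 2.61% ± 0.217 in THP-1 control libraries. HSPA8, CALR, HSP90AB1 and HSPD1 stood highest in each group's mean, while HSPA1A, DNAJB4, DNAJB9, BAG3 and HSPA1B stood lowest. The plot of levels shows that for most genes the points of the 4 groups lay close together, and that 9 of the 12 ER genes separated the untreated lines, while HSPA5, SDF2L1 and DNAJB9 overlapped.

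**Figure D1:**
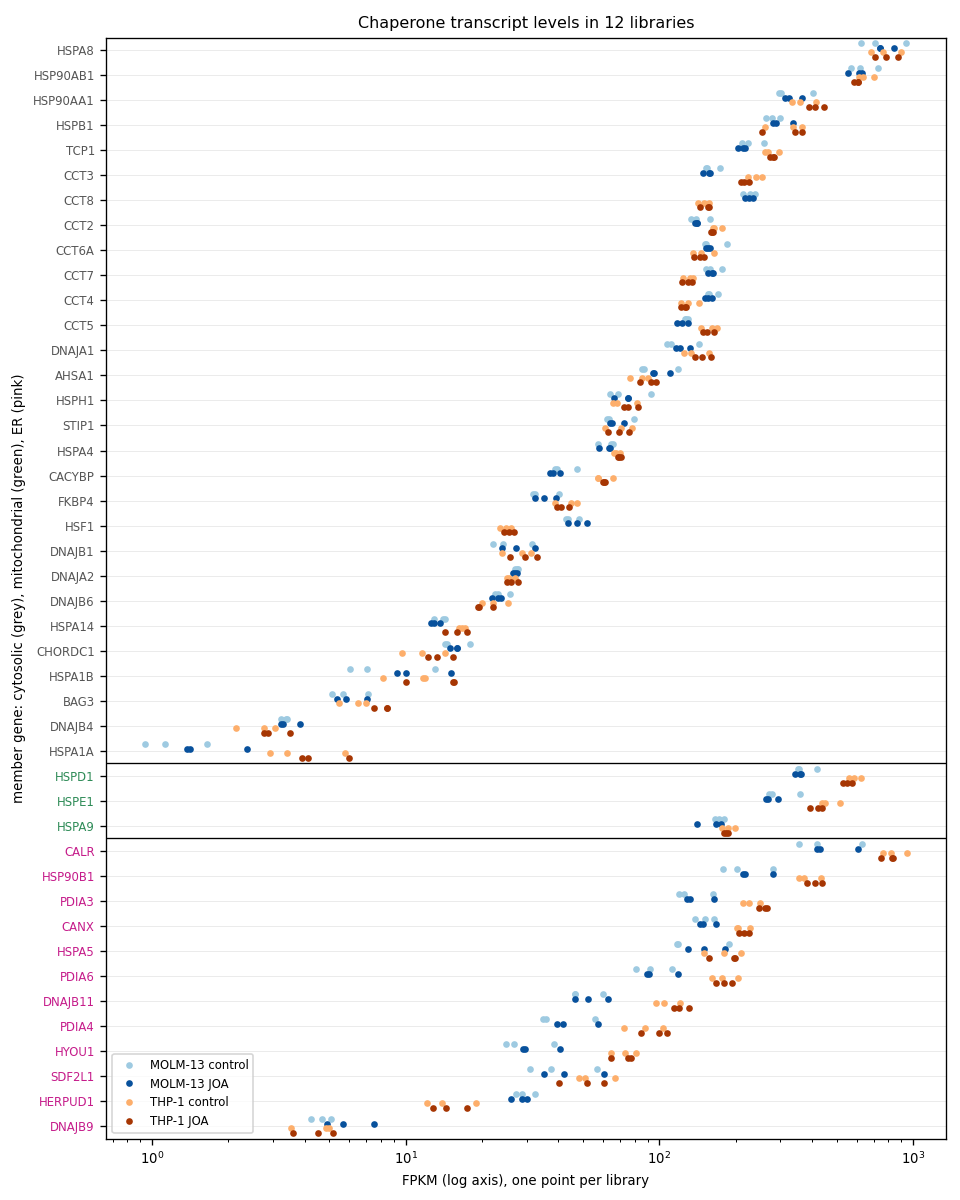
FPKM (log axis) of the 44 chaperone genes in 12 libraries, with 1 point per library and a color per group, ordered within the cytosolic, mitochondrial and ER sets by mean level. ER genes such as HYOU1, PDIA4 and DNAJB11 were higher in every THP-1 library (orange, brown) than in any MOLM-13 library (light and dark blue).

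JOA moved no chaperone gene past the thresholds in either line. A gene was called where its log2 fold change reached 0.58 in size with an adjusted p under 0.05, by limma with Benjamini-Hochberg adjustment over all genes tested. In MOLM-13, 0 of 44 members were called, and 0% of the 11693 genes tested were called. In THP-1, 0 of 44 were called, against 0.134% of the 12712 genes tested. With DESeq at the same cutoffs, the study reported changed genes in both lines, more than this fit called in either. The lack of calls here therefore does not show that JOA left transcripts unchanged. At an unadjusted p under 0.05, 1 member passed in MOLM-13 (DNAJB9, background 4.11% of genes) and 2 in THP-1 (BAG3 and PDIA3, background 16.9%). In this fit the shares among the chaperones were thus near or under the background of all genes.

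Same-numbered control and JOA libraries deviated together within each line, so each comparison was also fitted with the replicate number as a block. With the block, 0 members passed both thresholds in MOLM-13 (background 0%) and 0 in THP-1 (background 1.27%). On the adjusted p alone and with the block, 3 members were higher with JOA in THP-1: HSPA1B, BAG3 and DNAJB11, against 8.06% of all genes in either direction and 5.37% upward. In MOLM-13 the same rule called 0 members and 0% of genes. At an unadjusted p under 0.05 in the blocked fit, 6 members of 44 passed in MOLM-13, all higher (HSPA1A, HSPA1B, DNAJB1, PDIA4, HYOU1 and DNAJB9). The background there was 11.1% in either direction and 6.61% higher. In THP-1 12 of 44 were higher and 2 lower (CCT3 and DNAJB6), with a background of 26% (16.5% higher and 9.51% lower). By this rule the shares of members higher were above the background in both lines, and the share lower in THP-1 was under it. These shares were not tested.

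The precision was enough to bound most changes. In the blocked fit the 95% interval of the log2 fold change lay within ±0.58 for 42 of 44 members in MOLM-13, the exceptions being HSPA1A and HSPA1B, and for 44 of 44 in THP-1. Without the block this held for 38 members in MOLM-13 and 41 in THP-1.

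**Figure D2:**
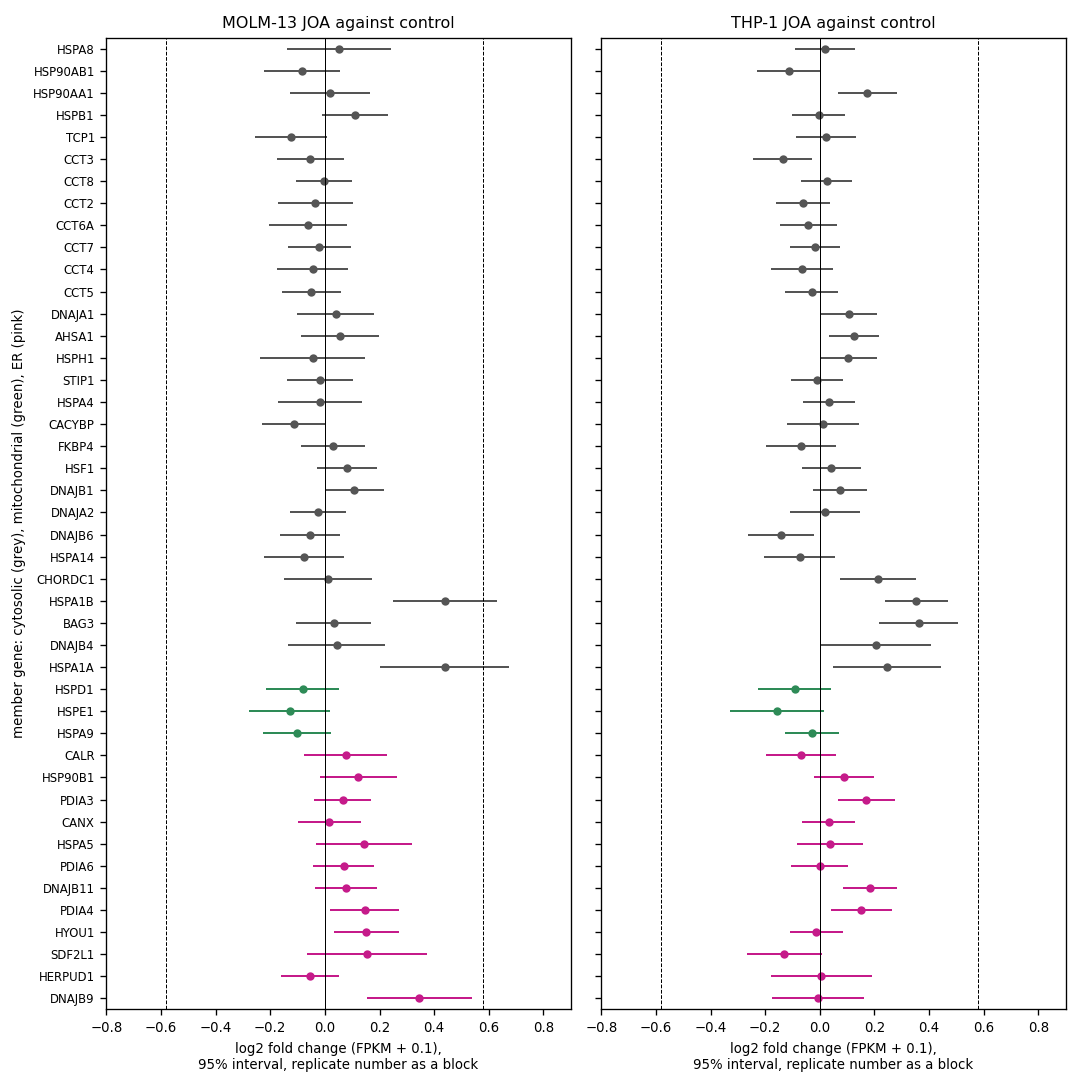
Log2 fold change of each chaperone gene with JOA in MOLM-13 (left) and THP-1 (right) on the log2(FPKM + 0.1) scale. Points are estimates, bars are 95% intervals from the fit with replicate number as a block, and dashed lines mark ±0.58. Only the MOLM-13 bars of HSPA1A and HSPA1B cross a dashed line.

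With JOA the cytosolic and ER sets had medians close to 0 in both lines. In MOLM-13 the median log2 fold change was -0.017 over the 29 cytosolic members (13 positive, 16 negative) and 0.10 over the 12 ER members (11 positive, 1 negative), beside 0.0055 over all genes, of which 52.4% were positive. In THP-1 the medians were 0.020 for the cytosolic set (17 positive, 12 negative) and 0.019 for the ER set (7 positive, 5 negative), beside 0.023 over all genes, of which 56.7% were positive. The 3 mitochondrial members were negative in both lines, with medians of -0.10 in MOLM-13 and -0.093 in THP-1. These counts describe the sets and were not tested. The THP-1 directions depended on scaling: 24 of 44 members were positive as deposited, 30 after rescaling to TPM and 14 after upper-quartile scaling, and the ER count went from 7 to 10 and 4. In MOLM-13 the ER count was 11, 11 and 10. Single libraries set the MOLM-13 ER median, which was 0.31 without control replicate 1, -0.0018 without control replicate 2 and -0.012 without JOA replicate 1. The cytosolic median in MOLM-13 was 0.058 without control replicate 1. In THP-1 the ER median ran from -0.037 (without JOA replicate 1) to 0.12 (without control replicate 1), and the cytosolic median from -0.012 (without control replicate 3) to 0.074 (without control replicate 1).

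Summed levels gave the same picture. ER members summed to 1412 ± 317 FPKM in MOLM-13 control and 1486 ± 232 in MOLM-13 JOA libraries (SD, n = 3 each), and to 2376 ± 270 and 2414 ± 167 FPKM in THP-1 control and JOA. Cytosolic members summed to 4058 ± 484 and 4015 ± 178 FPKM in MOLM-13 and to 4211 ± 389 and 4208 ± 239 FPKM in THP-1. For both sets, in each line, the difference of the means was smaller than the SD of either group.

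The promoters of the sets carried different elements. RefSeq promoter windows (250 bases before to 50 after a start, build GRCh38.p14) were found for 39 of the 44 genes. No window was found for HSPA14, FKBP4, HSF1, CCT6A and PDIA3. The heat shock element bound by HSF1 was searched on both strands as 3 alternating units, GAANNTTCNNGAA or TTCNNGAANNTTC. The ER stress response element was searched as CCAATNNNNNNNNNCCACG and its second form as ATTGG and CCACG with 1 base between them, both on both strands, the latter added after the data were seen. The heat shock element was in 6 of 25 cytosolic genes (CHORDC1, DNAJA1, DNAJB6, HSP90AA1, HSP90AB1 and HSPA8), in 1 of 3 mitochondrial genes (HSPD1) and in 0 of 11 ER genes, beside 0.608% of 27305 genes with a window and 0.49% of 35116 windows. The ER stress response element was in 5 of 11 ER genes (CALR, CANX, HSP90B1, HSPA5 and PDIA6) and the second form in 3 others (HERPUD1, HYOU1 and SDF2L1), beside 0.0916% and 0.0696% of all genes with a window, and 0.0769% and 0.0541% of windows. Both forms were in 0 of 25 cytosolic genes. A match is a description of the letters and not a shown binding site. The search allowed no mismatch, so a gene without a match may still hold an imperfect or more distant element.

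The elements follow, in capitals within lower-case flanks and written 5′ to 3′ on the strand of the gene, for genes whose levels are given next. The heat shock elements of 4 cytosolic genes and of HSPD1 were:
HSPA8 (chr11:123062171-123062199, minus strand): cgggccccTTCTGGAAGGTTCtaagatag
HSP90AA1 (chr14:102087112-102087140, minus strand): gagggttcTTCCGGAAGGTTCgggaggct
HSP90AB1 (chr6:44247770-44247798, plus strand): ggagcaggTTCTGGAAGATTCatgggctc
CHORDC1 (chr11:90223084-90223112, minus strand): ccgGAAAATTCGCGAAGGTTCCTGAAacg
HSPD1 (chr2:197500062-197500090, minus strand): gcattTTCTGGAAAGTTCTGGAAccgagc
The CHORDC1 capitals hold 3 overlapping matches and those of HSPD1 hold 2. The ER stress response elements, in either orientation, were:
HSPA5 (chr9:125241386-125241414, minus strand): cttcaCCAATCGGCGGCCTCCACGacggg
HSP90B1 (chr12:103930316-103930344, plus strand): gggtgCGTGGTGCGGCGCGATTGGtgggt
CALR (chr19:12938379-12938407, plus strand): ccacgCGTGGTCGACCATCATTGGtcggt
PDIA6 (chr2:10812848-10812876, minus strand): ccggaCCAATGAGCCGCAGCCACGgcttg
The second form was read in these promoters:
HERPUD1 (chr16:56932016-56932044, plus strand): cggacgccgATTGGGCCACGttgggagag
HYOU1 (chr11:119057265-119057293, minus strand): ggcctgggaCGTGGTCCAATgagtacgcg
SDF2L1 (chr22:21642105-21642133, plus strand): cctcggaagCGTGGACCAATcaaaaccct
HSPA8, HSP90AB1, HSP90B1 and HYOU1 hold a further separate match that is not printed. The HSPA8, HSP90AA1, CHORDC1, HSPD1 and HSP90B1 stretches overlap an exon of a transcript in GENCODE 29, and that of HSPD1 also overlaps an exon of HSPE1. No exact match to these patterns was found in the windows of HSPA1A and HSPA1B, which does not show that they lack a heat shock element.

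The stress-inducible HSP70 genes HSPA1A and HSPA1B, which are nearly silent without stress in many cells, had low values here, subject to the read assignment described below. In the order of replicates 1, 2 and 3, which is used for all values that follow, HSPA1A read 1.65, 1.12 and 0.935 FPKM in MOLM-13 control, 2.36, 1.42 and 1.38 in MOLM-13 JOA, 5.76, 2.93 and 3.40 in THP-1 control and 5.97, 3.91 and 4.14 in THP-1 JOA libraries. HSPA1B read 13.1, 6.03 and 7.05 FPKM in MOLM-13 control, 15.1, 9.26 and 10.03 in MOLM-13 JOA, 11.97, 8.12 and 11.7 in THP-1 control and 15.4, 10.1 and 15.3 in THP-1 JOA libraries. In all 6 same-numbered pairs both genes were higher with JOA, while the JOA and control groups overlapped. The libraries numbered 1 were the highest of their group for both genes in all 4 groups. In MOLM-13 the log2 fold changes with JOA were 0.44 ± 0.25 (SE) for HSPA1A and 0.44 ± 0.28 for HSPA1B, with limma adjusted p of 1.00 for both, and of 0.318 and 0.243 with the replicate block. Leaving out 1 library at a time, HSPA1A ran from 0.20 (without JOA replicate 1) to 0.65 and HSPA1B from 0.22 (without control replicate 2) to 0.77, both highest without control replicate 1. In THP-1 HSPA1A gave 0.25 ± 0.25 (adjusted p = 0.674, limma). HSPA1B gave 0.35 ± 0.20 there, with an adjusted p of 0.412 without the block and 0.0108 with it (limma), and ran from 0.175 (without control replicate 2) to 0.556 (without JOA replicate 2).

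The assignment of reads between HSPA1A and HSPA1B is uncertain, since their open reading frames of 1926 bases differ at 4 positions (99.79% identical). Both lie on chromosome 6 (GRCh38.p14 31815543-31817942 and 31827738-31830254). Their sum does not depend on how shared reads were split between them, except through length. It would be too low if shared reads were dropped, and their handling is not given in the sources used here. The sum was 9.95 ± 4.14 FPKM in MOLM-13 control and 13.2 ± 3.74 in MOLM-13 JOA libraries, and 14.6 ± 3.32 and 18.3 ± 3.84 FPKM in THP-1 (SD, n = 3). HSPA1A made up 12.9% ± 2.47 of that sum in MOLM-13 control and 27.2% ± 5.03 in THP-1 control libraries. HSPA1A was called higher in THP-1 than in MOLM-13 controls (1.60 ± 0.27, adjusted p = 0.000876, limma), whereas HSPA1B gave 0.34 ± 0.28 (adjusted p = 0.293, limma).

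HSPA8, the constitutive HSP70 whose promoter holds the heat shock elements shown above, read 943, 625 and 705 FPKM in MOLM-13 control, 839, 740.4 and 744 in MOLM-13 JOA, 894, 763 and 682 in THP-1 control and 874, 779.8 and 711 in THP-1 JOA libraries. It was the most abundant cytosolic member and its groups overlapped, with log2 fold changes of 0.051 ± 0.14 in MOLM-13 and 0.020 ± 0.11 in THP-1. The exchange factor HSPH1 read 92.98, 68.9 and 63.8 FPKM in MOLM-13 control, 74.95, 75.3 and 66.1 in MOLM-13 JOA, 81.5, 67.9 and 65.8 in THP-1 control and 82.6, 75.1 and 72.9 in THP-1 JOA libraries. Its groups overlapped too, with -0.044 ± 0.13 in MOLM-13 and 0.10 ± 0.088 in THP-1. The other HSP70 genes of the cytosol, HSPA4 (an exchange factor) and HSPA14 (ribosome-associated), stayed between -0.077 and 0.033 with JOA. HSPA14 was higher in THP-1 controls by 0.27 ± 0.063 (adjusted p = 0.00459, limma), under the fold threshold.

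The HSP90 isoforms leaned in opposite directions in THP-1. HSP90AA1, the stress-inducible HSP90 alpha, read 403, 296 and 302 FPKM in MOLM-13 control, 366, 325 and 314 in MOLM-13 JOA, 415, 360.0 and 333 in THP-1 control and 444, 412 and 389.7 in THP-1 JOA libraries. HSP90AB1, the constitutive HSP90 beta, read 726, 617 and 571 FPKM in MOLM-13 control, 629, 614 and 556 in MOLM-13 JOA, 701, 634 and 615 in THP-1 control and 607, 609 and 587 in THP-1 JOA libraries. All 3 THP-1 JOA libraries of HSP90AB1 lay under all 3 controls, whereas the HSP90AA1 groups overlapped. With JOA in THP-1, HSP90AA1 gave 0.17 ± 0.089 (adjusted p = 0.376, and 0.0571 with the replicate block, limma), and HSP90AB1 gave -0.11 ± 0.065 (adjusted p = 0.43, limma). Neither passed. In MOLM-13 the values were 0.019 ± 0.12 and -0.084 ± 0.10.

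The ratio of the isoforms within a library does not depend on scaling between libraries. HSP90AA1 over HSP90AB1 was 0.591, 0.567 and 0.541 in THP-1 control and 0.732, 0.676 and 0.664 in THP-1 JOA libraries, which did not overlap. In MOLM-13 it was 0.555, 0.479 and 0.528 in control and 0.582, 0.529 and 0.564 in JOA libraries, which overlapped although each JOA library was above the control of its number. The ratio was computed after its values were seen and was not tested.

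No HSP90 co-chaperone was called in either line with JOA or between the untreated lines as deposited. CHORDC1, whose promoter carries overlapping heat shock elements, read 18.0, 14.3 and 14.5 FPKM in MOLM-13 control, 16.02, 15.97 and 14.97 in MOLM-13 JOA, 14.2, 11.6 and 9.70 in THP-1 control and 15.3, 13.4 and 12.3 in THP-1 JOA libraries. Its THP-1 groups overlapped, at 0.21 ± 0.14 with JOA (adjusted p = 0.486, limma), though CHORDC1 and AHSA1 were higher in all 3 THP-1 pairs. Between the untreated lines CHORDC1 gave -0.40 ± 0.15 and FKBP4 0.33 ± 0.11 (adjusted p = 0.0352 and 0.0254, limma), under the fold threshold. CACYBP, the calcyclin-binding protein, read 47.2, 39.4 and 38.9 FPKM in MOLM-13 control, 40.7, 37.96 and 37.01 in MOLM-13 JOA, 65.95, 57.4 and 57.1 in THP-1 control and 59.8, 61.3 and 60.4 in THP-1 JOA libraries. It was lower with JOA in all 3 MOLM-13 pairs by a small amount (-0.11 ± 0.085) and higher in THP-1 than in MOLM-13 controls by 0.53 ± 0.093 (adjusted p = 0.00113, limma). That was under the fold threshold as deposited and above it after rescaling to TPM (0.61), after upper-quartile scaling (0.65) and without MOLM-13 control replicate 1 (0.62). Without the same library the MOLM-13 value with JOA was -0.023. AHSA1, which activates the HSP90 ATPase, STIP1, which links HSP70 to HSP90, and FKBP4, an HSP90-bound immunophilin, ranged from -0.069 to 0.12 with JOA in both lines. HSPB1, the small heat shock protein HSP27, read 299, 279 and 263 FPKM in MOLM-13 control, 338, 282 and 289.7 in MOLM-13 JOA, 364, 338 and 260.2 in THP-1 control and 366, 342 and 253 in THP-1 JOA libraries. Its log2 fold change was 0.11 ± 0.088 in MOLM-13 and -0.0041 ± 0.16 in THP-1.

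Among the J-domain and BAG co-chaperones, BAG3 stood out in THP-1. BAG3, which couples HSP70 to selective autophagy, read 7.13, 5.66 and 5.12 FPKM in MOLM-13 control, 7.07, 5.83 and 5.36 in MOLM-13 JOA, 7.002, 5.44 and 6.51 in THP-1 control and 8.41, 7.51 and 8.43 in THP-1 JOA libraries. All THP-1 JOA libraries lay above all THP-1 controls, the only one of the 44 genes for which this held upward in either line, while the MOLM-13 groups overlapped. In THP-1 it gave 0.36 ± 0.10, with an adjusted p of 0.137 without the block and 0.0197 with it (limma). Non-overlap was seen upward for 1 and downward for 2 (HSP90AB1 and CCT2) of 44 members in THP-1, against 23.4% of all genes (14.6% upward and 8.81% downward), and for 0 of 44 in MOLM-13, against 9.65%. The difference of the BAG3 response between the lines was 0.33 ± 0.19 (adjusted p = 0.771, and 0.122 with the block, limma).

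DNAJB1, the HSP40 that delivers clients to HSP70, read 31.4, 22.03 and 24.2 FPKM in MOLM-13 control, 32.4, 23.9 and 27.1 in MOLM-13 JOA, 28.7, 24.1 and 31.2 in THP-1 control and 29.6, 25.8 and 32.96 in THP-1 JOA libraries. It was higher with JOA in all 6 pairs, by 0.11 ± 0.15 in MOLM-13 and 0.073 ± 0.11 in THP-1, and passed in neither. DNAJB6 went the other way in all 6 pairs (-0.056 ± 0.070 and -0.14 ± 0.094). DNAJA1, DNAJA2 and DNAJB4 ranged from -0.025 to 0.20. Over both lines, 6 members were higher in all 6 pairs (HSPA1A, HSPA1B, DNAJB1, PDIA3, PDIA4 and DNAJB11; background 8.22% of genes) and 3 were lower in all 6 (HSP90AB1, HSPE1 and DNAJB6; background 4.32%).

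**Figure D3:**
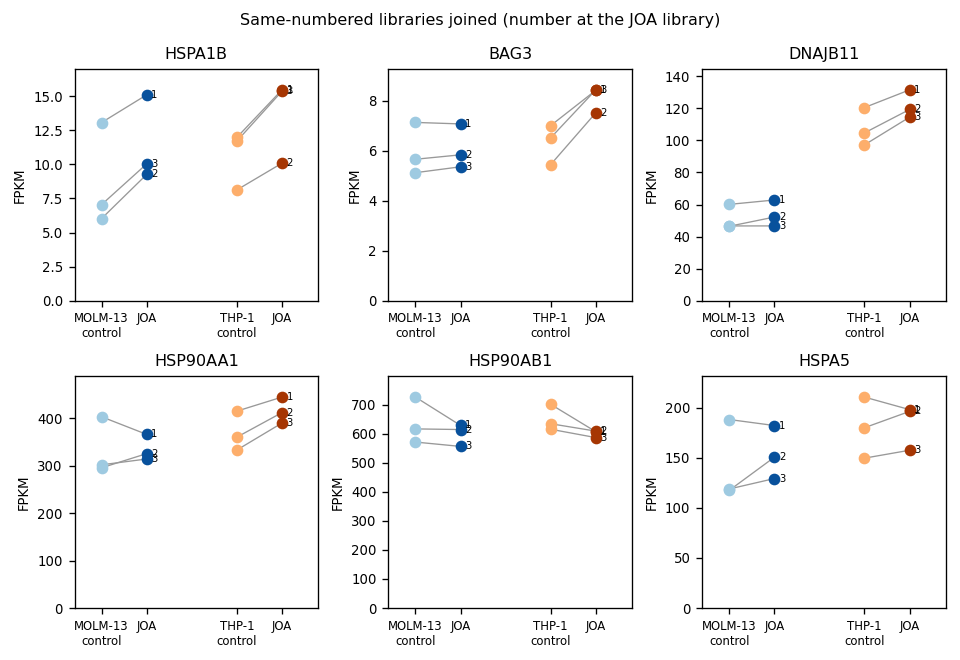
FPKM of 6 chaperone genes in every library, with a line joining control and JOA libraries of the same number, which is printed at the JOA point. HSPA1B runs up along all 6 lines, BAG3 along the 3 THP-1 lines, and HSP90AB1 runs down along all 6.

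HSF1, the transcription factor of the heat shock response, hardly moved with JOA and differed between the lines. It read 48.3, 43.1 and 43.8 FPKM in MOLM-13 control, 52.1, 47.2 and 43.8 in MOLM-13 JOA, 26.1, 24.9 and 23.6 in THP-1 control and 26.7, 24.5 and 25.5 in THP-1 JOA libraries. The MOLM-13 libraries were all above the THP-1 libraries, and the difference between the untreated lines was -0.86 ± 0.068 (adjusted p = 9.96e-06, limma), the smallest p among the members. With JOA it changed by 0.080 ± 0.080 in MOLM-13 and 0.043 ± 0.057 in THP-1. The median difference of the cytosolic set between the lines was 0.087.

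The 8 CCT subunits, which assemble in equal numbers into 1 ring complex, had unequal transcript levels. TCP1 read 259.7, 225 and 211 FPKM in MOLM-13 control, 217, 215 and 204 in MOLM-13 JOA, 295, 269 and 262 in THP-1 control and 283, 274 and 281 in THP-1 JOA libraries. In MOLM-13 control libraries the highest mean among the 8 was 1.81 times the lowest (TCP1 over CCT5), and in THP-1 control libraries it was 2.11 times (TCP1 over CCT7). With JOA the figures were 1.83 times (CCT8 over CCT5) and 2.23 times (TCP1 over CCT4). All 8 were slightly negative with JOA in MOLM-13, with a median of -0.048 and a range from -0.12 (TCP1) to -0.0039 (CCT8). This rested on control replicate 1, without which 4 of 8 were negative and the median was 0.00047, and only TCP1 was lower in all 3 pairs. The TCP1 value without that library was -0.040. In THP-1 6 of 8 were negative as deposited, 5 after rescaling to TPM and 8 after upper-quartile scaling, and CCT3 had the smallest p of them (-0.14 ± 0.061, adjusted p = 0.312, limma). No subunit passed in either line.

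Between the untreated lines the subunits split. CCT3 read 174, 153 and 155 FPKM in MOLM-13 control, 157, 159 and 148 in MOLM-13 JOA, 253, 240.4 and 223 in THP-1 control and 216, 225 and 209.9 in THP-1 JOA libraries. CCT8 read 214, 228 and 238 FPKM in MOLM-13 control, 218, 225 and 235 in MOLM-13 JOA, 157, 150.5 and 142 in THP-1 control and 157, 155 and 145 in THP-1 JOA libraries. Every THP-1 library was above every MOLM-13 library for CCT3 and under it for CCT8. CCT3 was higher in THP-1 by 0.57 ± 0.077 and CCT8 lower by -0.60 ± 0.067 (adjusted p = 0.000221 and 7.64e-05, limma). At an adjusted p under 0.05 and no fold threshold, CCT2, CCT3, CCT5 and TCP1 were higher, and CCT4, CCT7 and CCT8 lower, in THP-1. As deposited CCT8 alone among the subunits passed the fold threshold as well. After rescaling to TPM CCT8 missed it (-0.51) and CCT3 passed it (0.65), and after upper-quartile scaling the values were -0.47 and 0.69. CCT8 also missed it without MOLM-13 or THP-1 control replicate 3 (-0.56 for each), and CCT3 passed it without MOLM-13 control replicate 1 (0.63) or THP-1 control replicate 3 (0.62).

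Of the mitochondrial genes, HSPD1 (HSP60) read 419, 354 and 355 FPKM in MOLM-13 control, 363, 358 and 342 in MOLM-13 JOA, 623, 584 and 559 in THP-1 control and 531, 574 and 551 in THP-1 JOA libraries. HSPE1 (HSP10), its co-chaperonin and neighbor on chromosome 2, read 359.9, 279 and 269.8 FPKM in MOLM-13 control, 292, 268 and 264 in MOLM-13 JOA, 513, 449 and 439 in THP-1 control and 394, 439.9 and 421 in THP-1 JOA libraries. Both were higher in all THP-1 than in all MOLM-13 libraries, by 0.65 ± 0.088 and 0.63 ± 0.12 between controls (adjusted p = 0.000226 and 0.00158, limma). HSPE1 lost the fold threshold when MOLM-13 control replicate 2 or 3 or THP-1 control replicate 1 was left out (0.56 to 0.58). With JOA, HSPE1 gave -0.13 ± 0.11 in MOLM-13 and -0.16 ± 0.076 in THP-1, lower in all 6 pairs and past no threshold. GENCODE 29 names 26 pseudogenes after HSPE1, and 17 each after HSPD1 and HSPA8, and reads shared with such copies could shift these levels.

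In the ER, BiP (HSPA5), the HSP70 of that compartment, read 188, 118 and 119 FPKM in MOLM-13 control, 182, 151 and 129 in MOLM-13 JOA, 211, 180.1 and 149.7 in THP-1 control and 198, 196 and 158 in THP-1 JOA libraries. Its groups overlapped with JOA (0.14 ± 0.19 in MOLM-13, 0.037 ± 0.13 in THP-1). GRP94 (HSP90B1) read 281, 179 and 202 FPKM in MOLM-13 control, 280.1, 214 and 218 in MOLM-13 JOA, 435, 372 and 354 in THP-1 control and 437, 411 and 384 in THP-1 JOA libraries. Calreticulin (CALR) read 629.9, 355 and 420.1 FPKM in MOLM-13 control, 609.6, 419 and 429.9 in MOLM-13 JOA, 951, 823 and 761 in THP-1 control and 837, 823 and 751 in THP-1 JOA libraries. For both, every THP-1 library was above every MOLM-13 library, and MOLM-13 replicate 1 was well above replicates 2 and 3 in control and JOA alike. The log2 fold change of CALR with JOA was 0.076 ± 0.22 in MOLM-13 and -0.067 ± 0.092 in THP-1.

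No co-factor of BiP passed with JOA at both thresholds. DNAJB9 (ERdj4), a J-domain partner of BiP and a sensitive transcript of the unfolded protein response, read 5.08, 4.23 and 4.68 FPKM in MOLM-13 control, 7.50, 4.92 and 5.67 in MOLM-13 JOA, 4.87, 3.53 and 4.97 in THP-1 control and 5.16, 3.61 and 4.52 in THP-1 JOA libraries. It was higher with JOA in all 3 MOLM-13 pairs, with overlapping groups (0.35 ± 0.15, unadjusted p = 0.0456, adjusted p = 1.00, limma; 0.18 without JOA replicate 1), and gave -0.0070 ± 0.17 in THP-1. DNAJB11 (ERdj3) read 60.1, 46.4 and 46.6 FPKM in MOLM-13 control, 62.8, 52.2 and 46.7 in MOLM-13 JOA, 120.4, 105 and 97.1 in THP-1 control and 131, 119 and 114 in THP-1 JOA libraries. In THP-1 it gave 0.18 ± 0.087 with JOA, with an adjusted p of 0.339 without the block and 0.0386 with it (limma), and it was higher in all 3 pairs. It ran from 0.11 (without control replicate 3) to 0.27 (without control replicate 1). SDF2L1, a partner of ERdj3, read 56.7, 30.8 and 37.3 FPKM in MOLM-13 control, 60.5, 42.2 and 35.2 in MOLM-13 JOA, 67.01, 51.1 and 48.3 in THP-1 control and 60.4, 51.9 and 40.3 in THP-1 JOA libraries. It leaned up in MOLM-13 (0.15 ± 0.25) and down in THP-1 (-0.13 ± 0.16), within the spread in each.

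HYOU1 (GRP170), the exchange factor of BiP whose promoter holds the second form of the element shown above, read 38.5, 24.8 and 26.8 FPKM in MOLM-13 control, 40.7, 29.5 and 29.1 in MOLM-13 JOA, 80.9, 73.2 and 64.6 in THP-1 control and 77.2, 75.05 and 64.3 in THP-1 JOA libraries. Its lines did not overlap, and JOA gave 0.15 ± 0.18 in MOLM-13 and -0.013 ± 0.097 in THP-1. The disulfide isomerase PDIA3 (ERp57) read 162, 119.5 and 126 FPKM in MOLM-13 control, 164, 128 and 133 in MOLM-13 JOA, 249, 226 and 214 in THP-1 control and 267, 261 and 246 in THP-1 JOA libraries. Its THP-1 change with JOA was 0.17 ± 0.068 (adjusted p = 0.256, and 0.0528 with the block, limma), short of the threshold. PDIA6, another isomerase, read 112, 80.9 and 91.9 FPKM in MOLM-13 control, 118, 89.3 and 91.2 in MOLM-13 JOA, 204, 176 and 162 in THP-1 control and 194, 179.8 and 167 in THP-1 JOA libraries. PDIA4 and PDIA6 gave 0.15 ± 0.14 and -0.00053 ± 0.093 with JOA in THP-1. HERPUD1, a component of ER-associated degradation, read 27.1, 32.2 and 28.9 FPKM in MOLM-13 control, 26.1, 30.04 and 28.7 in MOLM-13 JOA, 19.0, 12.1 and 13.9 in THP-1 control and 17.5, 14.4 and 12.8 in THP-1 JOA libraries. It was the 1 ER member called lower in THP-1, and every THP-1 library was under every MOLM-13 library.

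The untreated lines differed in 13 of the 44 chaperone genes, and 8 of these were ER genes. Untreated THP-1 was compared with untreated MOLM-13, and the 13 calls stood against 44% of the 12635 genes tested, so the share among chaperones (10 higher, 3 lower) was under the background (25% higher, 19% lower). Within the sets, 7 of 12 ER members were called higher in THP-1 and 1 lower, 1 of 29 cytosolic members higher and 2 lower, and 2 of 3 mitochondrial members higher. Those higher were HSPA1A, HYOU1, PDIA4, DNAJB11, PDIA6, CALR, HSP90B1, PDIA3, HSPD1 and HSPE1, and those lower were HERPUD1, HSF1 and CCT8. The median log2 difference was 0.80 in the ER set, 0.63 in the mitochondrial set and 0.087 in the cytosolic set, beside 0.059 over all genes, of which 53% were positive. Over all genes the median moved to 0.141 after rescaling to TPM and to 0.18 after upper-quartile scaling, and 31, 33 and 35 members were then positive as deposited, by TPM and by upper quartile. The sets were not tested against each other, and the medians of other genes of the same compartments are given below.

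In log2 units the ER differences were 1.30 ± 0.16 for HYOU1, 1.08 ± 0.19 for PDIA4 and 1.08 ± 0.12 for DNAJB11. They were 0.93 ± 0.13 for PDIA6, 0.89 ± 0.20 for CALR, 0.83 ± 0.16 for HSP90B1 and 0.77 ± 0.12 for PDIA3. Each had an adjusted p of 0.00365 or under (limma). HERPUD1 gave -0.99 ± 0.15 (adjusted p = 0.000506, limma). CANX, at 0.48 ± 0.082 (adjusted p = 0.000918, limma), fell short of the fold threshold, and HSPA5, SDF2L1 and DNAJB9 did not pass, with HSPA5 at 0.37 ± 0.19 (adjusted p = 0.12, limma). Without the fold threshold 25 members passed, 18 higher and 7 lower, against 71.2% of all genes (39% higher and 32.2% lower).

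The JOA libraries gave the difference between the lines again, although at doses that differed. They are separate libraries of the same lines and were taken as paired with the controls, so this is not an independent repeat. There 13 members were called, 11 higher and 2 lower, against 26.1% and 18.9% of all genes, and 12 of these were called in the same direction between controls. CCT8 was called only between controls and CACYBP only between JOA libraries. The medians were 0.77 for the ER set, 0.087 for the cytosolic set and 0.605 for the mitochondrial set, beside 0.084 over all genes. For 43 of 44 members the sign was the same in both.

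**Figure D4:**
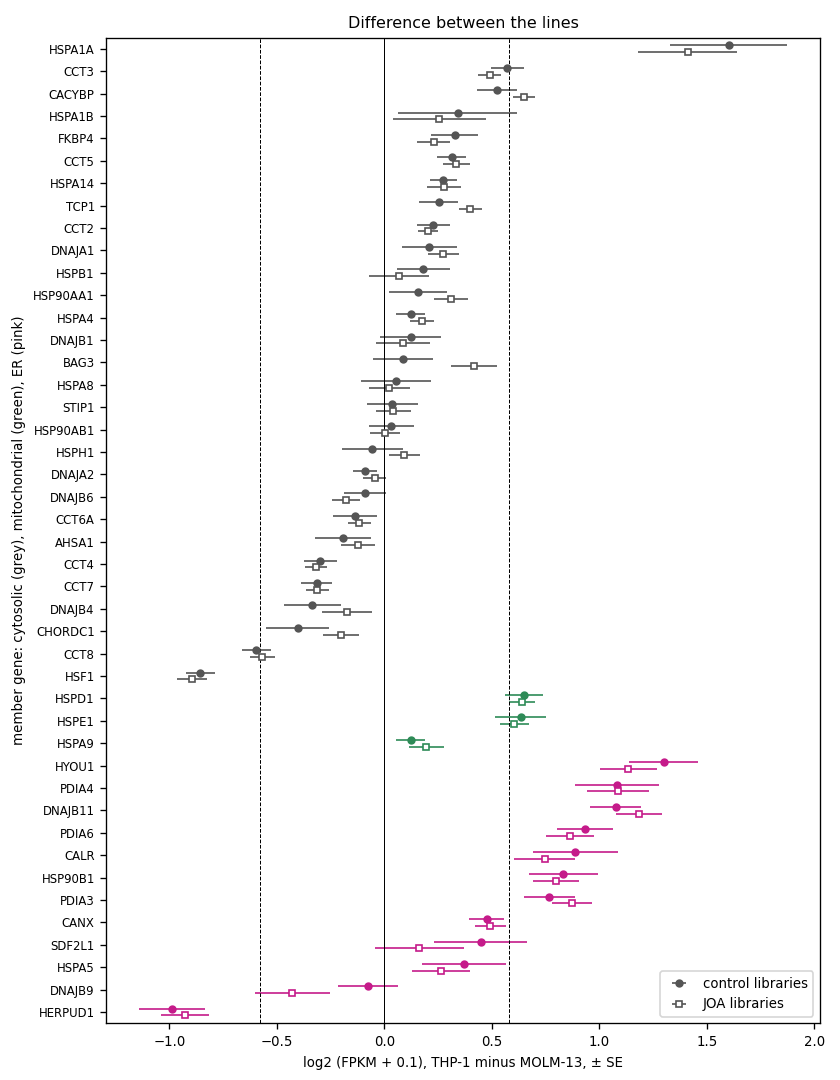
Log2(FPKM + 0.1) difference, THP-1 minus MOLM-13, ± SE for each chaperone gene, from control libraries (filled circles) and from JOA libraries (open squares). Dashed lines mark ±0.58. The ER genes lie mostly to the right, HERPUD1 lies at the far left of them, and the cytosolic genes are spread around 0.

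The response to JOA was not found to differ between the lines for any member. In the interaction of line and treatment, 0 of 44 members and 0% of the 12626 genes tested passed an adjusted p under 0.05 by limma, and at an unadjusted p under 0.05 there were 0 members against 7.24% of genes. With the replicate block 0 members and 0.0475% of genes passed, and at an unadjusted p under 0.05 there were 3 members (BAG3, DNAJB9 and HYOU1) against 14.9%. BAG3, given above, had the smallest p. DNAJB9 gave -0.35 ± 0.25 (adjusted p = 0.84, limma). Of the members 23 were positive as deposited (55.4% of all genes), 31 after rescaling to TPM and 16 after upper-quartile scaling. The values for TCP1, HSP90AA1, CHORDC1 and CACYBP were 0.15, 0.15, 0.20 and 0.12. In MOLM-13, 9 members were higher in all 3 pairs and 7 lower (background 18.5% and 15.7%), and in THP-1 15 and 7 (background 29.3% and 19.4%).

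The control range on the log2 scale was larger than the absolute difference with JOA for 42 of 44 members in MOLM-13 (88.1% of all genes) and for 43 of 44 in THP-1 (74% of all genes). The median control range was 0.335 in MOLM-13 and 0.302 in THP-1 over the members, beside 0.227 and 0.199 over all genes, and it was 0.554 and 0.33 over the ER set. Libraries numbered 1 were the highest of their group for 38 of 44 members in MOLM-13 control, 32 in MOLM-13 JOA, 40 in THP-1 control and 32 in THP-1 JOA, against 43.2%, 42.8%, 40.1% and 36.7% of all genes. What sets the libraries numbered 1 apart is not given in the sources used here, and its part in the results was not tested. Without them 0 members were called with JOA in either line, and 14 between the untreated lines. The ER medians were then 0.16 for JOA in MOLM-13, 0.060 for JOA in THP-1 and 0.89 between the lines. The cytosolic medians were 0.043, 0.048 and 0.13.

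**Figure D5:**
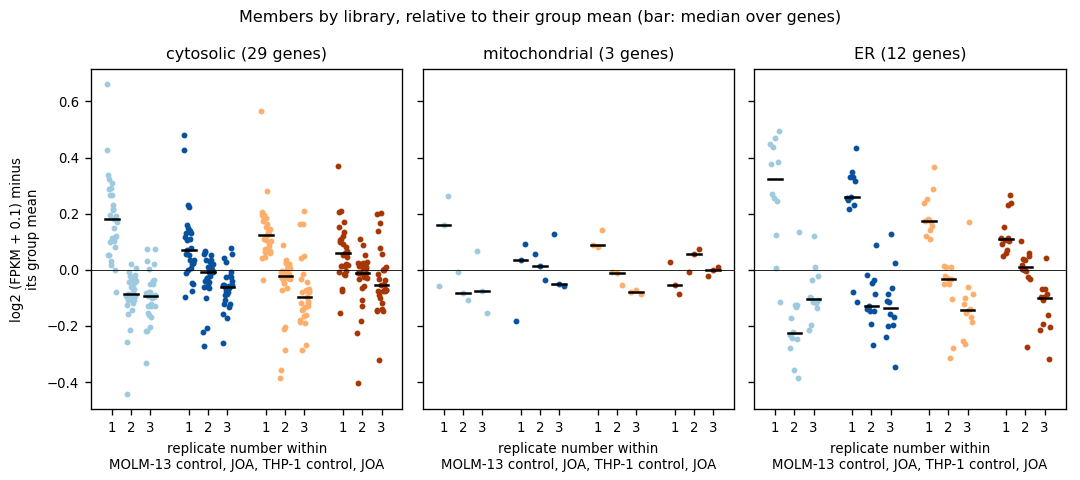
Log2(FPKM + 0.1) of each chaperone gene minus the mean of its group, by library, in the cytosolic (left), mitochondrial (middle) and ER (right) sets. Bars are medians over genes. In the ER and cytosolic panels the medians of the libraries numbered 1 sit above 0 in all 4 groups, and most widely in the ER set of MOLM-13.

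Other genes of the same pathways were followed as lists. Of 30 other cytosolic chaperone genes, 27 were tested in MOLM-13 and 28 in THP-1, and of 32 other genes of ER folding and the unfolded protein response all 32 were tested. With JOA 0 of these passed both thresholds in either line by limma, with the backgrounds given above. At an unadjusted p under 0.05 in THP-1, 9 of the 32 other ER genes were higher and 2 lower, and 9 did not overlap upward, against 16.9% and 14.6% of all genes. On the adjusted p alone DDIT3, the pro-apoptotic factor CHOP, rose in THP-1. It read 10.7, 10.4 and 10.5 FPKM in THP-1 control and 13.9, 13.3 and 13.9 in THP-1 JOA libraries, which did not overlap (log2 difference 0.38 ± 0.050, adjusted p = 0.0394, limma), against 0.299% of all genes. In MOLM-13 it read 4.60, 5.20 and 4.88 in control and 4.66, 5.85 and 5.37 in JOA libraries. ERP44, which retains client proteins in the early secretory pathway, gave log2 difference 0.31 ± 0.047, adjusted p = 0.0533 in THP-1 (limma).

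With the replicate block and no fold threshold, 7 of the 32 other ER genes were higher and 1 lower in THP-1, against 5.37% and 2.69% of all genes. Those higher were DDIT3, PPP1R15A, DNAJC3, DNAJC10, DNAJC1, ERO1A and ERP44, and PPIB was lower. Of the other cytosolic genes 1 was higher (PPID), and of 9 other genes of mitochondrial protein quality 1 was lower (TRAP1, the mitochondrial HSP90, log2 difference -0.19, adjusted p = 0.0367 with the replicate block, limma). In MOLM-13 0 passed. Between the untreated lines 12 of the 32 other ER genes were called higher in THP-1 and 4 lower, 4 and 1 of the 28 other cytosolic genes, and 0 and 1 of the 9 mitochondrial genes, against 25% and 19% of all genes. Their median log2 differences were 0.143 (ER, 17 positive, 15 negative), -0.0773 (cytosolic, 13 and 15) and -0.199 (mitochondrial, 1 and 8). The medians of the ER and mitochondrial members, 0.80 and 0.63, were thus not shared by these other genes. XBP1, the transcription factor of the unfolded protein response that acts on many ER chaperones, was among the lower ones. It read 187, 286 and 245 in MOLM-13 control and 67.9, 56.6 and 44.3 FPKM in THP-1 control libraries (log2 difference -2.09 ± 0.18, adjusted p = 1.94e-05, limma), in the direction opposite to most of the ER members. This gene-level value does not separate transcript forms, and the activity of the factor was not measured. The other ER genes called lower were XBP1, DERL1, DERL3 and DNAJC1, and the cytosolic genes were HSPA2, HSPA4L, DNAJA4 and PFDN2 (higher) and BAG4 (lower), with CLPP lower among the mitochondrial genes.

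Markers of the cells were followed beside the chaperones. Of 10 myeloid markers all 10 were tested, and 0 passed both thresholds with JOA in either line by limma. With the replicate block ITGAM, a marker of myeloid maturation, was higher and MPO, an enzyme of immature granules, lower in THP-1, against 1.27% of all genes. ITGAM gave a log2 difference of 0.71 (adjusted p = 0.0348 with the replicate block, limma). The list as a whole was mixed there, with 4 markers positive and 6 negative and a median of -0.056. In MOLM-13 8 were positive and 2 negative, with a median of 0.109. Between the untreated lines 2 of the 10 were higher in THP-1 (CD14 and CSF1R) and 5 lower (CD33, LYZ, FLT3, HOXA9 and MEIS1), against 25% and 19% of all genes. CD14 was near the filter on low values. It read 0.091, 0.074 and 0.265 FPKM in MOLM-13 control and 0.202, 0.602 and 0.84 in THP-1 control libraries, which overlapped. Of 7 markers of other lineages 1 was tested in MOLM-13 and 2 in THP-1, with 0 passing with JOA. The part of these markers in the chaperone values was not tested.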

How the data were processed

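Total RNA of MOLM-13 and THP-1 cells was sequenced as stranded mRNA libraries, 3 per group. The authors deposited 1 table of FPKM values per gene and library. The submitters' processing notes name Trimmomatic, HISAT2, Cufflinks, HTSeq and hg38 without roles or versions. How reads shared by similar genes were assigned is not given in the sources used here. Depth is unknown, because the low values did not give whole reads, so no counting interval is given and no count model could be run.

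Values were tested as log2(FPKM + 0.1) with limma 3.58.1 in R 4.3.3 (trended variance), for genes with a mean of at least 0.1 FPKM in the libraries compared, with Benjamini-Hochberg adjustment over all genes tested. A gene was called where its log2 fold change reached 0.58 in size with an adjusted p under 0.05, and the difference between responses needed the adjusted p alone. Fold changes on this scale understate those of low genes. The scripts were tested on simulated data. Groups came from the sample labels. Same-numbered libraries deviated together within a line over all genes tested (r of 0.264 to 0.398 in MOLM-13 and 0.139 to 0.319 in THP-1). The numbers were therefore taken to pair control with JOA, although no label says what they share. Over the 44 members r was 0.644 to 0.835 in MOLM-13 and 0.828 to 0.881 in THP-1. Unlike-numbered MOLM-13 libraries also gave member r of 0.563 (control 2, JOA 3) and 0.335 (control 3, JOA 2), while the remaining unlike-numbered values within a line were negative. Deviations were taken from the mean of the 3 libraries of a group, so unlike-numbered values lean negative where same-numbered ones are positive. The negative values are therefore no separate evidence of pairing. Between the lines' controls r was 0.131, 0.0776 and 0.0698 over all genes and 0.439, 0.0911 and 0.27 over the members, and they were not taken as pairs. Exact permutation of 3 against 3 libraries cannot go below p = 0.10.

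The genes with values in every library were the main members of each role and the 6 members with the smallest p in each comparison, with genes of the other lists beyond those called or of smallest p named after their values were seen. The members and lists were chosen with earlier results of these data known. Alternatives were other pseudocounts, filters, scalings (TPM, upper quartile), the replicate block, thresholds and leaving out libraries.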

Additional observations from a re-analysis of the deposited data

How the results depend on the processing

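Of the results that answer a comparison, 139 values under the alternatives moved by less than the spread between replicates (counts by at most 1.5 times) and 7 by more. Counts that stayed at 0 are among the 139. Between the untreated lines, leaving out 1 library could hardly move a median by more than that spread, so the tally does not measure stability. The medians with JOA lie near 0, and their sign changed when single libraries were left out. With the replicate block and no fold threshold, 3 members were called with JOA in THP-1 (chosen after seeing the data), and with no fold threshold 25 were called between the untreated lines. Leaving out 1 library at a time, the ER median with JOA ran from -0.012 to 0.31 in MOLM-13 (lowest without JOA replicate 1, highest without control replicate 1, and -0.0018 without control replicate 2) and from -0.037 to 0.12 in THP-1, the cytosolic median from -0.060 to 0.058 and from -0.012 to 0.074, and members called between the untreated lines from 11 to 18 (highest without MOLM-13 control replicate 1, where HSPA1B, CACYBP, CCT3, HSPA5 and SDF2L1 were added). After upper-quartile scaling the cytosolic and ER medians with JOA in THP-1 were both -0.028. The cause was not tested. The replicate block changed no call of a member at both thresholds. Among the members called between the lines, or of smallest p with JOA, 9 values lost the call, all for CCT8 and HSPE1 between the lines, and 3 gained one with JOA (BAG3, DNAJB11 and HSPA1B, with the block and no fold threshold). Depth is unknown, and 3 libraries per group limit what small differences can be seen.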
